A study of Saccharomyces cerevisiae with 12 samples.

Results

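DEAH-box RNA helicases of Saccharomyces cerevisiae were followed over 12 expression arrays through 6 genes: PRP2, PRP16, PRP22, PRP43, DHR2 and ECM16, the last also known as DHR1. Each gene had 1 probe set, found by its symbol or synonym, so that the family made up 6 of the 5449 named genes and 6 of the 8968 probe sets tested, out of 10928 on the array. The family was chosen with its values in these arrays known, because PRP43 differed between 5 and 25 generations of low-shear modeled microgravity (LSMMG) and DHR2 was lower at both times. For these 6 genes, LSMMG values are therefore given as a description with no test, and only the comparison of control cultures at 25 and 5 generations, which the choice did not use, was tested.

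DEAH-box proteins are ATPases that pull RNA strands or proteins out of large ribonucleoprotein assemblies, and each acts at a defined stage. In yeast, Prp2, Prp16 and Prp22 drive successive rearrangements of the spliceosome, Prp43 takes spent spliceosomes apart and also works on precursors of both ribosomal subunits, and Dhr2 and Dhr1 are needed to make the small subunit. Several of them have little activity alone and are switched on by partner proteins, many of which carry a short glycine-rich stretch called a G-patch.

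RNA came from the diploid strain BY4743, grown at 30 °C in the rich medium YPD in high aspect ratio vessels (HARVs), which are rotating vessels filled completely with medium. For LSMMG the HARV turned around a horizontal axis, and control HARVs turned around a vertical axis. The 6 control arrays formed the group Ctrl, and LSMMG was sampled by 3 arrays at 5 generations (SMG 5) and 3 at 25 generations (SMG 25). By their titles the control arrays were 3 of 5 and 3 of 25 generations, whereas the growth notes of all samples name 5 generations and the study's own account of the arrays divides the controls otherwise, so the titles were followed. Cultures were kept in log phase by serial dilution, all arrays are of 1 strain, and nothing states which arrays share a culture, so p-values measure only the spread between arrays, which may be technical.

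The deposited values are ratios. The median ratio was 1 on every array, and over the 12 arrays it lay from 0.9935 to 1.0105 for single probe sets. Each ratio is thus relative to what is typical of that gene, and says nothing of which of several genes had more RNA. Neither low signal nor the strain could be checked from such values. The control arrays of 5 generations numbered 1 and 2 stood apart from the others: over strongly changed genes they lay a median of 0.309 and 0.382 of the way from Ctrl to the LSMMG arrays, against -0.279 to 0.0621 for the other 4. The study dropped 1 aberrant control array without naming it, and all deposited control arrays were used here. A list of 15 stationary-phase and stress genes, a measure of the state of the culture, had a median log2 ratio from -2.48 to -0.17 on the control arrays and from 0.14 to 0.41 on the LSMMG arrays, and 14 of them rose in SMG 5 and 9 in SMG 25 (limma, adjusted p under 0.05), where 22.5% and 21.7% of all probe sets did. The SMG 5 count was 9 without SMG 5 array 1 and 8 without array 2 or 3, and the SMG 25 count was 14 without the 5-generation control array numbered 1. Against controls of the same generation the counts were 8 and 10, and array weights gave 15 at both times, as did leaving out both 5-generation control arrays numbered 1 and 2. The median of that list separated the LSMMG arrays from the controls without overlap, as DHR2 did, though with a narrower gap. The part of the list in the values of the helicase genes was not tested.

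DHR2, ECM16 and PRP43 were lower on every LSMMG array than on every control array, whereas the ratios of PRP2, PRP16 and PRP22 overlapped between LSMMG and control arrays. Over the 12 arrays PRP2 ran from 0.910 to 1.23, PRP16 from 0.783 to 1.31 and PRP22 from 0.917 to 1.15. DHR2 had the largest difference, 5.50-fold lower in SMG 5 and 8.36-fold lower in SMG 25 than in Ctrl. PRP43 was 3.18-fold lower in SMG 5 and only 1.43-fold lower in SMG 25. ECM16 was 1.46-fold and 1.50-fold lower.

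**Figure D1:**
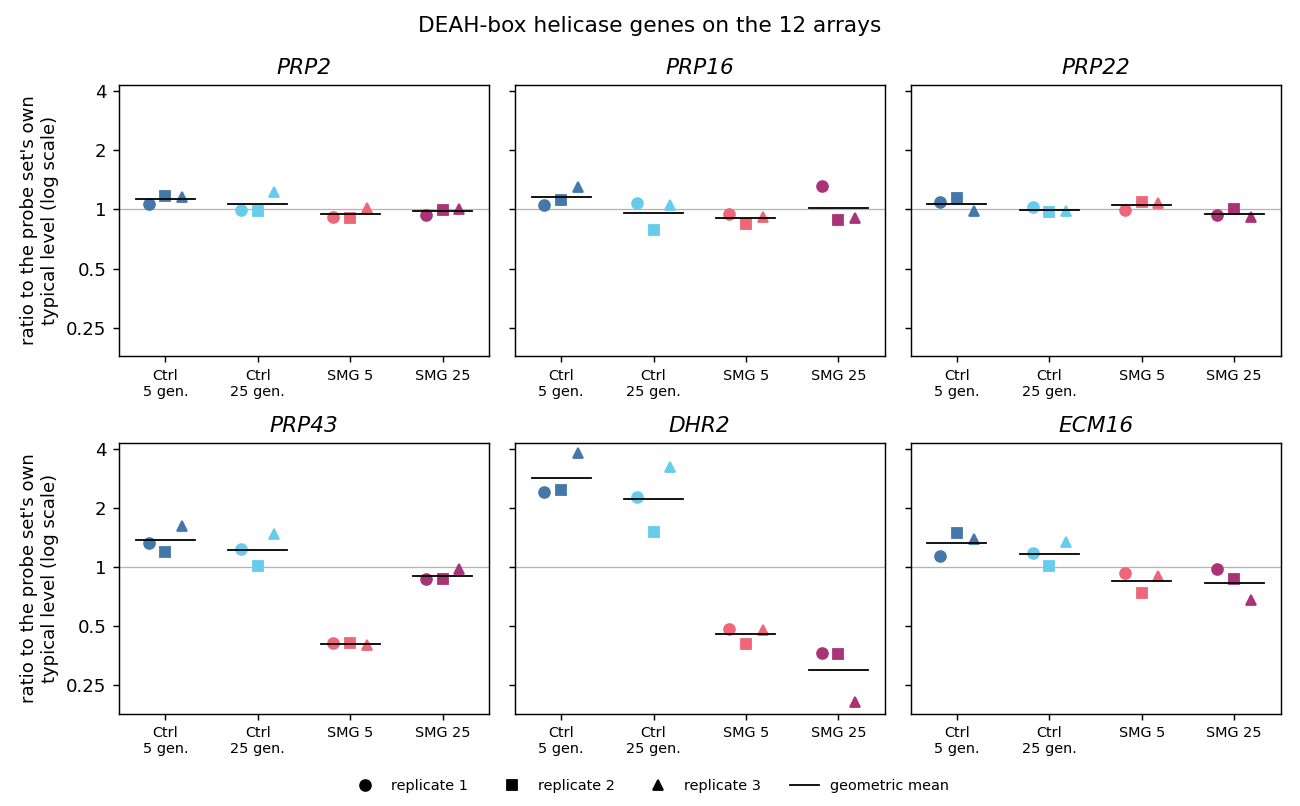
Ratio of each DEAH-box helicase gene to its probe set's own typical level (vertical axis, log scale) on the 12 arrays, by group; symbols mark replicates 1 to 3 and the lines are geometric means. DHR2 runs from 1.50 to 3.81 in Ctrl and from 0.207 to 0.487 in LSMMG, PRP43 is lowest in SMG 5, and PRP2, PRP16 and PRP22 overlap between LSMMG and Ctrl.

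Among the DEAH-box helicases of splicing, Prp2 acts earliest: it remodels the assembled spliceosome so that the first step of splicing can take place. On the control arrays of 5 generations PRP2 (YNR011C, chromosome XIV) had ratios of 1.07, 1.18 and 1.16, and on those of 25 generations 0.993, 0.986 and 1.23. The ratios were 0.913, 0.910 and 1.01 in SMG 5 and 0.939, 0.993 and 1.01 in SMG 25. SMG 5 lay below all 3 controls of its own generation, but both LSMMG groups overlapped Ctrl as a whole. The log2 difference from Ctrl was -0.22 (SE 0.09) in SMG 5 and -0.16 (SE 0.09) in SMG 25, both of which rest on the same control arrays.

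Prp16 acts next and releases the factors of the first step so that the second step can follow. PRP16 (YKR086W, chromosome XI) had ratios of 1.05, 1.12 and 1.31 on the control arrays of 5 generations and of 1.08, 0.783 and 1.05 on those of 25 generations. It had 0.950, 0.846 and 0.920 in SMG 5 and 1.31, 0.880 and 0.910 in SMG 25. A single SMG 25 array, replicate 1, reached the level of the highest control array, and the lowest ratio of all 12 was that of a control array of 25 generations. The log2 difference from Ctrl was -0.22 (SE 0.16) in SMG 5 and -0.05 (SE 0.16) in SMG 25, and the latter was 0.08 against the controls of the same generation.

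Prp22 acts last on the finished product and frees the spliced mRNA from the spliceosome. PRP22 (YER013W, chromosome V) was the steadiest of the 6 genes over the controls, with ratios of 1.09, 1.15 and 0.977 at 5 generations and of 1.03, 0.975 and 0.986 at 25 generations. Its ratios were 0.990, 1.10 and 1.08 in SMG 5 and 0.933, 1.01 and 0.917 in SMG 25. All groups overlapped. The log2 difference from Ctrl was 0.03 (SE 0.08) in SMG 5 and -0.12 (SE 0.08) in SMG 25, and the first of these was -0.02 against the controls of 5 generations.

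PRP43 (YGL120C, chromosome VII), whose product serves in both splicing and ribosome assembly, followed a course that no other gene of the family had. On the control arrays its ratios were 1.33, 1.19 and 1.62 at 5 generations and 1.24, 1.02 and 1.47 at 25 generations. In SMG 5 the ratios were 0.410, 0.410 and 0.404, and in SMG 25 they were 0.874, 0.867 and 0.982. The 3 groups did not overlap: SMG 5 was lowest, SMG 25 was between, and Ctrl was highest, although the highest SMG 25 array came close to the lowest control array. The 3 SMG 5 arrays were also nearly equal, with a mean ratio of 0.408 ± 0.00346 (SD, n = 3) against 0.908 ± 0.0645 (SD, n = 3) in SMG 25 and 1.31 ± 0.214 (SD, n = 6) in Ctrl. PRP43 thus stood -1.67 (SE 0.13) below Ctrl on the log2 scale in SMG 5 and -0.52 (SE 0.13) in SMG 25. SMG 25 exceeded SMG 5 by 1.15 (SE 0.15), a 2.22-fold difference, whereas the controls of 25 generations were -0.16 (SE 0.14) against those of 5. The difference between these effects, with each LSMMG group set against the controls of its own generation, was 1.31 (SE 0.20), and it was 1.56 without the control arrays of 5 generations numbered 1 and 2.

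The SMG 5 value of PRP43 was the 139th lowest of the 8968 probe sets and its SMG 25 value the 1110th lowest. In SMG 25 against SMG 5 it was the 13th highest. A course like that of PRP43, called lower than Ctrl at both times and higher in SMG 25 than in SMG 5, was found for 20 probe sets, or 0.223% of those tested. The way PRP43 was chosen placed it among them, so its place there is a description and no test. The count also depends on the calls in SMG 25 against SMG 5. Those numbered 153 by limma, 13 by the methods' t-test and 1352 with array weights. Of the 20, PRP43 had the largest log2 difference of SMG 25 from SMG 5, followed by UTR2, a cell wall cross-linking enzyme, with 0.99 and GCV3, a subunit of the glycine cleavage system, with 0.95.

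Dhr2 is a nucleolar helicase required for processing the precursor of the small-subunit ribosomal RNA. DHR2 (YKL078W, chromosome XI) had control ratios of 2.42, 2.47 and 3.81 at 5 generations and of 2.27, 1.50 and 3.24 at 25 generations. It had 0.487, 0.406 and 0.481 in SMG 5 and 0.364, 0.360 and 0.207 in SMG 25. The lowest control array was 3.09-fold above the highest LSMMG array, and the 3 SMG 25 arrays were all below the 3 SMG 5 arrays. The mean ratio was 2.62 ± 0.802 (SD, n = 6) in Ctrl, 0.458 ± 0.0451 (SD, n = 3) in SMG 5 and 0.310 ± 0.0895 (SD, n = 3) in SMG 25. On the log2 scale DHR2 was -2.46 (SE 0.26) from Ctrl in SMG 5 and -3.06 (SE 0.26) in SMG 25.

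These values placed DHR2 24th lowest in SMG 5 and 7th lowest in SMG 25 of 8968 probe sets. SMG 25 was -0.60 (SE 0.30) against SMG 5, so the gap between the LSMMG groups was much smaller than the gap of either from Ctrl. With each LSMMG group set against the controls of its own generation, the difference between 25 and 5 generations was -0.26 (SE 0.42), and it turned to 0.17 without the control arrays of 5 generations numbered 1 and 2. The distance of SMG 25 from Ctrl grew to 13.0-fold after quantile normalization, over 1.5 times the value on the deposited scale.

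Dhr1, the product of ECM16, releases the U3 small nucleolar RNA from the precursor of the small subunit. ECM16 (YMR128W, chromosome XIII) had control ratios of 1.14, 1.50 and 1.38 at 5 generations and of 1.18, 1.02 and 1.34 at 25 generations. Its ratios were 0.935, 0.742 and 0.896 in SMG 5 and 0.981, 0.870 and 0.680 in SMG 25. No LSMMG array reached a control array, but the gap was narrow, from 0.981 to 1.02. The log2 difference from Ctrl was -0.55 (SE 0.15) in SMG 5 and -0.58 (SE 0.15) in SMG 25, and the LSMMG groups overlapped each other with a difference of -0.03 (SE 0.17). The 2 nucleolar helicases of the small subunit were therefore lower at both times but by very different amounts.

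**Figure D2:**
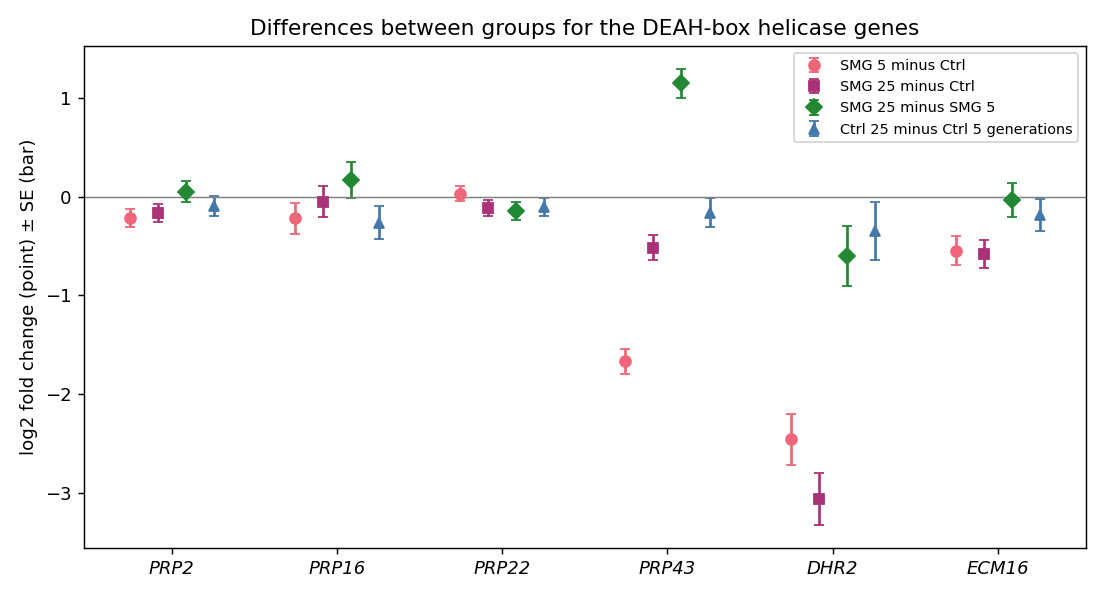
Log2 fold change (points) ± SE (bars) of the 6 DEAH-box helicase genes in 4 comparisons. DHR2 is at -2.46 and -3.06 against Ctrl, PRP43 is at -1.67 in SMG 5 and -0.52 in SMG 25, and all 6 differences between control arrays of 25 and 5 generations lie between -0.35 and -0.09.

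All 6 LSMMG arrays lay below all 6 control arrays for 3 of the 6 genes, PRP43, DHR2 and ECM16, which held for 13.3% of all probe sets. SMG 25 lay wholly above SMG 5 for PRP43 alone and wholly below it for DHR2 alone, where 17% and 18.7% of all probe sets did so, and SMG 5 lay below the controls of its own generation for all but PRP22, where 21.6% did. Since the genes were chosen on these contrasts, nothing is read from these counts.

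The generation of the control cultures was the comparison left untouched by the choice, and the 6 genes were tested in it. All 6 were lower at 25 than at 5 generations, and none of the differences passed the test, with adjusted p from 0.37 to 0.61 (limma, Benjamini-Hochberg). The largest was that of DHR2, -0.35 on the log2 scale (95% CI -0.99 to 0.30). PRP16 followed with -0.26 (95% CI -0.64 to 0.11), ECM16 with -0.19 (95% CI -0.55 to 0.18) and PRP43 with -0.16 (95% CI -0.47 to 0.16). PRP22 had -0.10 (95% CI -0.30 to 0.09) and PRP2 -0.09 (95% CI -0.32 to 0.13). The intervals reach a 1.99-fold lower level for DHR2, but only 1.25-fold and 1.23-fold for PRP2 and PRP22. At an unadjusted p under 0.05 the count was 0 by limma and 0 by the methods' t-test, and over all probe sets limma called 0.134%.

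For most of the 6 genes this difference became smaller when single control arrays were left out. All 6 genes had their lowest control ratio on the control array of 25 generations numbered 2, the array that held the lowest control ratio of 15.7% of all probe sets. Without it, the log2 difference between the control generations was -0.06 for DHR2, -0.11 for PRP16, -0.08 for ECM16, -0.02 for PRP43 and -0.04 for PRP2, while PRP22 kept -0.09. The highest control ratio lay on the 5-generation array numbered 3 for DHR2, PRP43 and PRP16, on the 5-generation array numbered 2 for PRP22 and ECM16, and on the 25-generation array numbered 3 for PRP2. Leaving out the 5-generation array numbered 3 also made the difference smaller for DHR2, PRP43 and PRP16. DHR2 varied most over the controls, with an SD of 0.46 on the log2 scale, more than 86.5% of probe sets. PRP22, with 0.10, varied more than only 9.36% of them. The median of all probe sets was 0.21, and that of probe sets that name 1 gene was 0.26.

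**Figure D3:**
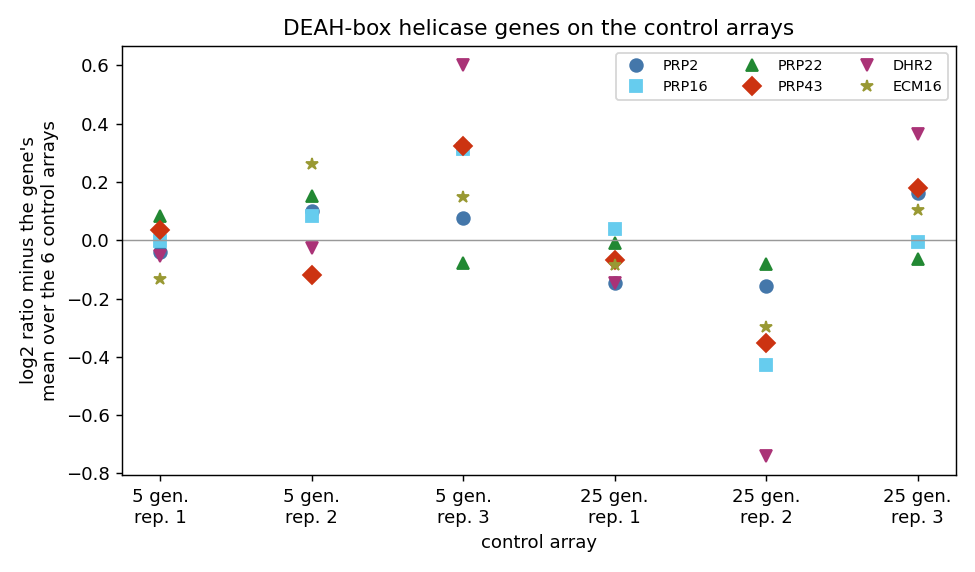
Log2 ratio of each DEAH-box helicase gene on the 6 control arrays, minus the gene's own mean over them (vertical axis), by array. All 6 genes are lowest on the 25-generation array numbered 2, where DHR2 is furthest down, and the scatter is widest for DHR2 (SD 0.46) and narrowest for PRP22 (SD 0.10).

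The array also carries probe sets for fission yeast (S. pombe), among them 4 whose genes bear the names prp2, prp16, prp22 and prp43. In fission yeast prp16, prp22 and prp43 are the DEAH-box counterparts of the budding yeast genes, whereas prp2 names a subunit of the splicing factor U2AF, and all samples are labelled as S. cerevisiae. Their ratios stayed between 0.800 and 1.22 on all arrays, and their mean log2 differences between LSMMG and Ctrl arrays were -0.06, -0.11, 0.05 and -0.10 in that order. The range of PRP43 itself was 0.404 to 1.62.

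Genes with the most similar course were found by the smallest mean absolute difference in log2 ratio over the 12 arrays. Only probe sets that name 1 gene were compared, without the members. For PRP43 the nearest genes were GCV3, with 0.18, AIM20, with 0.19, and ALG5, a glucosyltransferase of the glycosylation pathway, with 0.20, where the median of the probe sets compared was 0.65. For DHR2 they were ALB1, with 0.20, RIX1, with 0.25, and BCP1, with 0.27, against a median of 1.45. Alb1 and Rix1 belong to precursors of the large ribosomal subunit, and Bcp1 is a chaperone of a ribosomal protein. ECM16 was closest to the GTPase regulator gene AGE1, to SNU13, whose product binds both U4 and box C/D small nucleolar RNAs, and to the mismatch repair gene MSH3, at 0.11 each against a median of 0.42.

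Of the splicing helicases, PRP2 was nearest to the potassium transporter gene TRK1, the histone chaperone gene RTT106 and the ribosomal protein gene RPL31A, at 0.06 to 0.07. PRP16 was nearest to FLO9, TAD1 and MET7, at 0.10 to 0.12. PRP22 was nearest to the mitochondrial carrier gene PET9, the kinase gene CBK1 and the lipid kinase gene DGK1, at 0.06 each. FLO9 and RPL31A have close relatives in the genome whose RNA their probe sets may share. Within the family, PRP2 and PRP22 were the most alike pair, at 0.11, and PRP22 and DHR2 the least, at 1.36.

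The partners of these helicases, 14 genes, were tested in the LSMMG comparisons, and 5 rose while 2 fell at each time, where 22.5% and 21.7% of all probe sets rose and 18.3% and 17.9% fell. Those shares rest on a base with 3470 unnamed probe sets, and shares of the named genes alone were not taken. With array weights 8 rose in SMG 5 and 9 in SMG 25. The 2 that fell were partners on the ribosomal side. PXR1, a G-patch activator of Prp43 in the nucleolus, had ratios of 1.38 to 2.65 in Ctrl, with a median of 2.23, and fell to 0.378 to 0.479 in SMG 5 and to 0.356 to 0.614 in SMG 25. Its log2 differences were -2.28 (SE 0.22, adjusted p = 1.1e-05, limma) and -2.07 (SE 0.22, adjusted p = 2.2e-05). UTP14, the activator of Dhr1, fell by 1.12 on the log2 scale in SMG 5 (SE 0.16, adjusted p = 2.1e-04) and by 1.25 in SMG 25 (SE 0.16, adjusted p = 9.6e-05). UTP14 had a larger log2 difference than ECM16, whose protein it activates, at both times.

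The other partners of Prp43 in the list, on the splicing side or not, did not follow the course of PRP43. Ntr2 and the G-patch protein Spp382 carry Prp43 to spent spliceosomes, together with the J-domain protein Cwc23. NTR2 rose by 1.25 (adjusted p = 0.0030, limma) in SMG 5 and 1.28 (adjusted p = 0.0026) in SMG 25 on the log2 scale. CWC23 rose by 1.25 (adjusted p = 3.4e-05) and 1.54 (adjusted p = 7.8e-06). SPP382 had log2 differences of 0.09 and 0.12 and SQS1, another G-patch partner of Prp43, of 0.20 and 0.22, and these did not pass. With array weights SQS1 passed at both times. SMG 25 was not called against SMG 5 for any of the 5 partners of Prp43: their log2 differences ran from 0.02 to 0.29, with adjusted p from 0.54 to 0.99.

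SPP2, the G-patch activator of Prp2, rose in both groups, by 0.92 (SE 0.17, adjusted p = 0.0012, limma) in SMG 5 and 0.66 (SE 0.17, adjusted p = 0.0088) in SMG 25, where PRP2 itself had -0.22 and -0.16. SLU7, a factor of the second step, rose by 0.97 (adjusted p = 8.2e-04) and 1.01 (adjusted p = 6.7e-04). YJU2, which Prp16 expels after the first step, passed in SMG 5 with 1.26 (adjusted p = 0.047) but lost that call under 12 of 21 alternatives, and had 0.86 (adjusted p = 0.17) in SMG 25. DBR1, the debranching enzyme of excised introns, had 0.28 (adjusted p = 0.15) in SMG 5 and rose by 0.41 (adjusted p = 0.039) in SMG 25, a call lost when any of 6 arrays was left out. CWC25, CWC22, PRP18 and PRP17 (CDC40), which act beside Prp2, Prp16 or Prp22, had log2 differences of -0.13 to 0.60 in SMG 5 and of -0.08 to 0.47 in SMG 25, and none passed. Of 21 alternatives, 3 called PRP18 and 2 called PRP17 in SMG 5. In SMG 25, CWC22 was called under 3 and PRP18 and CWC25 under 1 each. No partner was called between SMG 25 and SMG 5 or between the control generations by limma or the methods' t-test, with 0 and 6 of the 14 at an unadjusted limma p under 0.05. Other settings made calls: with array weights, and without the 5-generation control array numbered 3, SPP2, NTR2, CWC23, CWC22, SLU7 and PRP17 were lower in the controls of 25 generations, and array weights also called CWC22 higher in SMG 25 than in SMG 5.

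**Figure D4:**
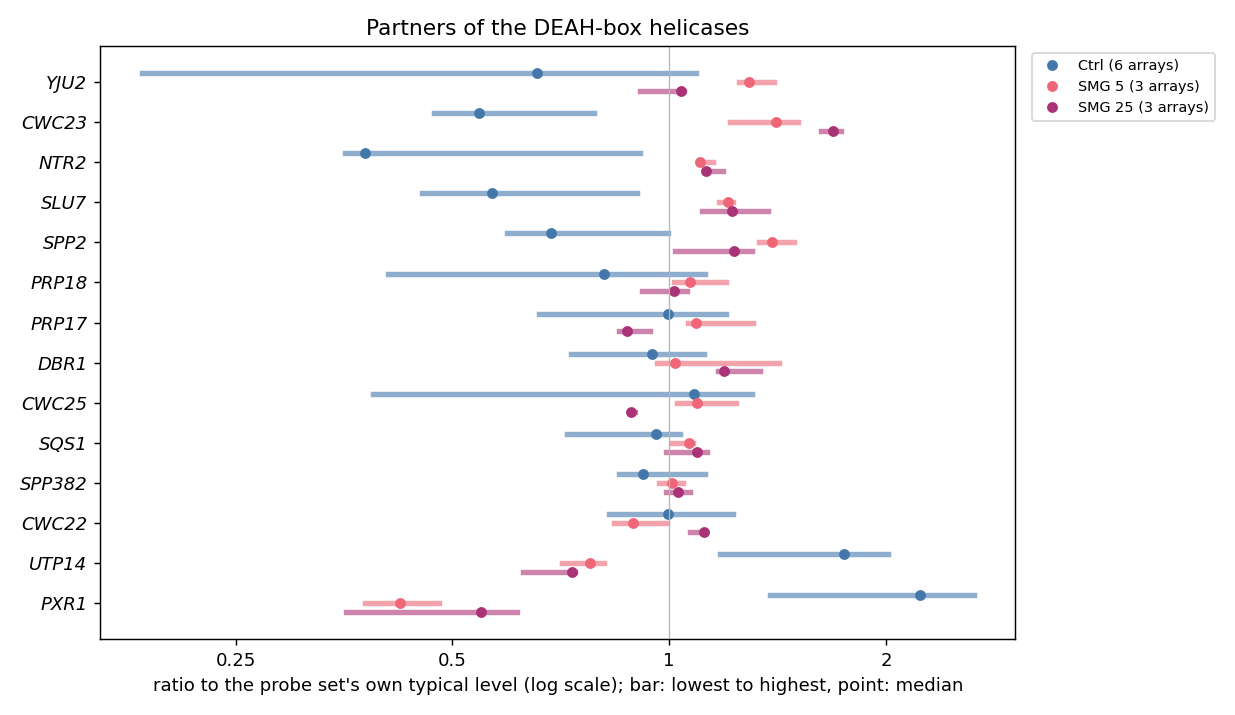
Ratios of 14 partner genes to their probe sets' own typical level (horizontal axis, log scale); bars run from the lowest to the highest array of a group and points are medians. PXR1 and UTP14 lie lower in both LSMMG groups than in Ctrl, and NTR2, CWC23, SLU7 and SPP2 lie higher.

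Helicases of other families served for comparison. All 16 DEAD-box and Ski2-like helicases of ribosome assembly fell in SMG 5 and all 16 in SMG 25, with medians of -1.48 and -1.74 on the log2 scale, where the median of all probe sets tested was -0.00 and -0.01. DBP2 fell by 4.36 in both groups, the most of the list, and HAS1 fell by 1.75 and 2.28, DBP9 by 1.81 and 1.91 and DBP7 by 1.47 and 1.83 (limma, adjusted p of these 4 from 2.3e-06 to 2.7e-05). DHR2 lay below 15 of these 16 genes at both times, and ECM16 lay beside the least changed of them, RRP3, with -0.53 and -0.58. PRP43, at -1.67, lay within their range of -4.36 to -0.53 in SMG 5, and at -0.52 it lay outside their range of -4.36 to -0.58 in SMG 25. YLR419W, a further DEAH-type gene without an assigned role, fell by 0.65 (adjusted p = 0.0029) and 0.93 (adjusted p = 2.8e-04).

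The 4 helicases of other families that act in splicing were divided. PRP5, which acts when U2 joins the intron, rose by 0.79 (adjusted p = 0.012, limma) in SMG 5 and 0.90 (adjusted p = 0.0059) in SMG 25, the first of which did not pass against the controls of 5 generations alone. SUB2, which also serves mRNA export, fell by 0.64 (adjusted p = 9.2e-05) and 0.38 (adjusted p = 0.0032). BRR2, which unwinds U4 from U6, fell by 0.73 at both times (adjusted p = 0.0037 and 0.0038). PRP28 had 0.50 (adjusted p = 0.063) and 0.48 (adjusted p = 0.075), and passed at both times when the 5-generation control array numbered 1 or 2 was left out. The differences of PRP2, PRP16 and PRP22 were smaller than those of all 4 at both times.

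**Figure D5:**
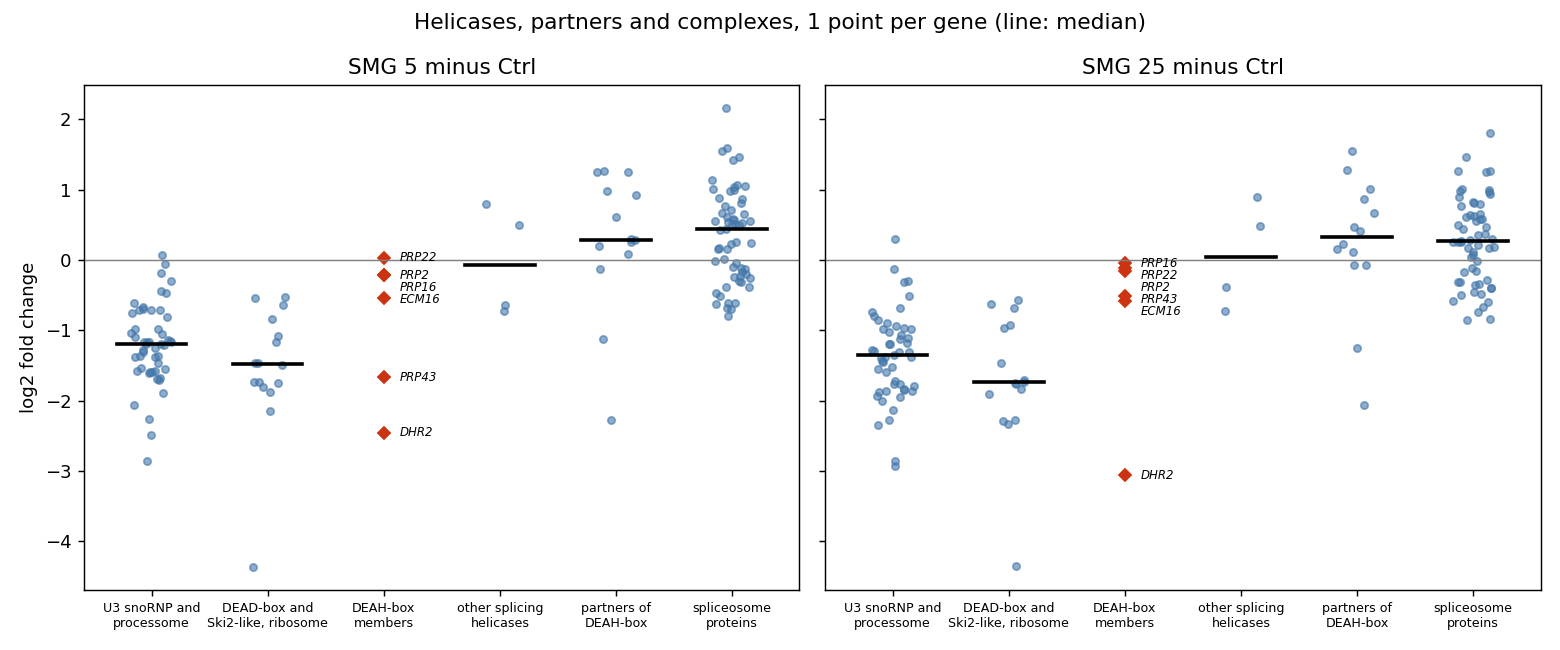
Log2 fold change against Ctrl (vertical axis) of the 6 DEAH-box helicase genes (diamonds) and of genes in 5 lists (circles, line at the median), in SMG 5 and SMG 25. DHR2 lies with the lowest genes of the U3 and DEAD-box lists, whose medians are between -1.74 and -1.20, while PRP2, PRP16 and PRP22 lie between -0.22 and 0.03.

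The complexes on which these helicases work were tested as well. Of 51 genes of the U3 ribonucleoprotein and the small-subunit processome, the substrate of Dhr1 and Dhr2, 45 fell in SMG 5 and 47 in SMG 25 and 0 rose (limma; at an unadjusted p under 0.05, 46 and 48 differed in either direction, and by the methods' t-test with adjustment 45 and 47). Their medians were -1.20 and -1.36 on the log2 scale. NSR1, the yeast nucleolin, fell by 2.48 and 2.93, MRD1 by 2.86 at both times, UTP4 by 2.07 in SMG 5 and by nearly as much in SMG 25, and RCL1 by 1.37 and 1.83 (adjusted p of these 4 from 2.2e-07 to 3.8e-06). In SMG 5, DHR2 lay below 49 of these 51 genes, and in SMG 25 it lay below all of them. ECM16 was nearer to Ctrl than 45 of them in SMG 5 and 46 in SMG 25.

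A single processome gene was called between the LSMMG times, and it was higher in SMG 25, as were 1.18% of all probe sets. NOP56, a core protein of box C/D small nucleolar ribonucleoproteins, fell by 1.04 in SMG 5 (adjusted p = 1.1e-04, limma) and had -0.13 (adjusted p = 0.49) in SMG 25, with a difference of 0.91 between the groups (adjusted p = 0.023). That last call was lost under 7 of 20 alternatives, among them the methods' t-test and leaving out any SMG 5 array or SMG 25 array 2 or 3. NOP56 was named here after its values were seen.

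Of 60 spliceosome proteins, 28 rose and 13 fell in SMG 5, and 23 rose and 13 fell in SMG 25, with medians of 0.43 and 0.27 on the log2 scale. Of all probe sets, 22.5% and 21.7% were called higher, and 18.3% and 17.9% lower. This base holds 3470 unnamed probe sets, and the share among named genes was not taken. Whether the counts of the list lie above or below that share can therefore not be told. Over the probe sets that name 1 gene, the median was 0.13 in SMG 5 and 0.15 in SMG 25. Against controls of the same generation the medians were 0.22 and 0.41, so that their order turned, and 20 and 31 rose. Without SMG 25 array 3, 8 rather than 13 fell in SMG 25. Between the control generations 27 of the 60 had an unadjusted limma p under 0.05, and 0 passed after adjustment. MUD2, which recognizes the branch site region, rose by 1.43 and 1.27, SYF2 by 1.55 and 1.25, and PRP3, a protein of U4/U6, by 1.60 and 1.46 (limma, adjusted p from 3.6e-06 to 1.2e-04). MUD1, a protein of the U1 particle, rose by 0.43 (adjusted p = 0.0036) and 0.97 (adjusted p = 1.4e-05), and it alone of the list was called between SMG 25 and SMG 5, with 0.54 (adjusted p = 0.041), a call lost under 10 of 20 alternatives, among them the methods' t-test and leaving out any LSMMG array. The 13 that fell included PRP8, the protein at the catalytic center, with -0.61 (adjusted p = 4.5e-04) and -0.50 (adjusted p = 0.0019), and HSH155 of U2, with -0.62 (adjusted p = 0.0039) and -0.86 (adjusted p = 4.6e-04), both named after their values were seen. PRP2, PRP16 and PRP22, which act on this machinery, lay within 0.22 of Ctrl on the log2 scale at both times.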

How the data were processed

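Total RNA of 12 samples was hybridized to Affymetrix Yeast Genome 2.0 arrays. RMA normalization of the CEL files and GeneSpring 7.2 were used by the authors. The deposited values are linear ratios, with the scaling per array and per probe set not given in the sources used here. Because the file holds ratios, the authors' filter on signal could not be applied. All ratios were log2-transformed without a constant. Left out were 1746 probe sets annotated to an S. pombe gene, 213 array controls and 1 probe set with several genes. That left 8968, of which 5498 name 1 S. cerevisiae gene and 3470 are unnamed, with no gene identifier. Whether the unnamed ones include further S. pombe probe sets was not checked. All shares and ranks over the 8968, and the adjustment of p-values, include them. The median SD of log2 ratios over the control arrays was 0.21 for all 8968 and 0.26 for those that name 1 gene. limma 3.58.1 (R 4.3.3) fitted all 12 arrays in the groups Ctrl, SMG 5 and SMG 25, and in 4 groups (controls divided by generation) for the control comparison and the interaction of LSMMG and generation. P-values were adjusted by Benjamini-Hochberg over the 8968 probe sets, with a threshold of 0.05 and no minimum fold. The number of arrays limits the precision. The code of the fit was run on simulated data with independent noise and few changed probe sets. That run checks the code only, since these arrays have many changed probe sets and control arrays that stand apart. Loci are from RefSeq, and figures were drawn with matplotlib 3.10.9.

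The members and the gene lists (161 genes in 7 lists, all measured) were chosen with earlier results of these data known. Named were the 6 members, all partners and splicing helicases of other families, YLR419W, the 4 genes with the largest moderated statistic among those past the threshold in each longer list, and the 3 genes nearest to each member. SIP18, SPG4, SPG1 and HSP30 were named by this rule from the stress list, which stands here only for the state of the culture. The replicate numbers were checked for pairing: 5 of 18 same-numbered pairs of arrays correlated above 0.1, so they were not used to pair arrays. Alternatives were quantile normalization, centring, a 2-fold minimum, the methods' t-test (Welch, on the same log2 ratios), a trended robust prior, array weights, all probe sets kept, matched controls, a replicate block and leaving out arrays.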

Additional observations from a re-analysis of the deposited data

How the results depend on the processing

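Over up to 21 alternatives, the differences of DHR2 and ECM16 from Ctrl kept their sign at both times, as did those of PRP43, whose log2 difference between SMG 25 and SMG 5 ran from 1.09 to 1.67. Quantile normalization moved 4 values by more than the spread between control arrays: PRP43 in SMG 5 to -2.22, in SMG 25 against SMG 5 to 1.67 and in the interaction of LSMMG and generation to 1.84, and DHR2 in SMG 25 to -3.70. Leaving out the control arrays of 5 generations numbered 1 and 2 moved the interaction to 1.56 for PRP43 and to -0.17 for PRP22. None of the 6 helicase genes passed in control 25 against control 5 generations under any of 20 alternatives (adjusted p from 0.17 to 0.94, limma). The sign of small differences changed, as for PRP16 in SMG 25 (-0.24 to 0.08) and PRP22 in SMG 5 (-0.02 to 0.09).

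The number of probe sets called was 3657 in SMG 5 and 3547 in SMG 25 against Ctrl, 153 in SMG 25 against SMG 5, 12 between control generations and 15 for the interaction. With a 2-fold minimum it was 1293, 1182, 22 and 6 for the first 4. The methods' t-test gave 13 in SMG 25 against SMG 5 and 0 between control generations, and with the 2-fold minimum, a choice made after seeing the data, 1247, 1161, 3 and 0. It was not run for the interaction. Array weights gave 1352, 2370 and 1780 for the last 3 comparisons. Quantile normalization gave 788 in SMG 25 against SMG 5 and 202 for the interaction, and leaving out the control arrays of 5 generations numbered 1 and 2 gave 607 and 46. Keeping all probe sets gave 46 between control generations. Leaving out 1 array gave 2921 to 4237 in SMG 5, 2841 to 4173 in SMG 25, 4 to 219 in SMG 25 against SMG 5, 0 to 2846 between control generations, the highest without the 5-generation array numbered 3, and 0 to 1682 for the interaction, the highest without the same array. The causes were not tested.

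With the replicate number as a block, 48 probe sets were called in SMG 25 against SMG 5, 0 between control generations and 9 for the interaction, and 3533 and 3445 against Ctrl. Same-numbered arrays correlated at -0.28 to 0.49, so the numbers do not show pairing. The number of arrays and the ratio scale, which hides the signal, limit what can be told of single genes.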
